A study of Homo sapiens with 6 samples.

Results

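The genes described are 10 that let cells detect DNA in the cytosol or in endosomes, or that pass such a signal on. They are CGAS, STING1 (TMEM173 in older annotations), AIM2, TREX1, TLR9, TLR3, UNC93B1, MYD88, TBK1 and IRF3. They were chosen by gene symbol, with values of these arrays known, among them the difference between the groups at CGAS. All differences between the groups at these genes are therefore given as a description and were not tested. The annotation of the array places 13 probes on the 10 genes. Of these, 8 probes of 6 genes passed the filter on dim probes, which asks for a detection p-value below 0.01 on 3 arrays or more. In all, 9211 genes had such a probe.

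IGROV-1, an established line of human ovarian carcinoma, was grown for 24 h in culture medium and mouse ascites, in equal parts. The ascites was cell-free fluid from mice with IGROV-1 tumours in the peritoneum. Donors of the saline ascites had been given saline, and donors of the CpG ascites 20 µg of CpG oligodeoxynucleotide each, once or on 3 consecutive days, with 3 mice in a group. RNA of 3 samples with each kind of ascites was measured on 6 Illumina bead arrays, 1 sample per array. No culture grew without ascites, so every level below is a level in ascites. Which schedule each fluid came from, whether fluids were pooled, the mouse strain and how much oligodeoxynucleotide the fluid still held are not given in the labels. Nor do they say whether replicates were separate cultures or fluids of separate mice, so errors and p-values reflect the spread of these samples alone, which may be technical.

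The enzyme cGAS, encoded by CGAS, binds double-stranded DNA in the cytosol and makes the messenger cGAMP, which activates STING on the endoplasmic reticulum. STING recruits the kinase TBK1, which phosphorylates the transcription factor IRF3, and IRF3 turns on interferon genes. TLR9 reads DNA with unmethylated CpG in endosomes, needs UNC93B1 to get there, and signals through the adaptor MyD88. In humans TLR9 is found above all in plasmacytoid dendritic cells and B cells, while TLR3, a receptor for double-stranded RNA that uses the adaptor TRIF instead of MyD88, is found in many epithelia. AIM2 binds cytosolic DNA and assembles an inflammasome, and TREX1 is an exonuclease that removes cytosolic DNA.

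The oligodeoxynucleotide is shown because it is the ligand whose receptor is at issue. It is a phosphorothioate DNA of 20 bases given 5′ to 3′, and capitals mark both copies of the hexamer around each of its 2 CG pairs, a context known to favour mouse TLR9 over human TLR9.
ODN1826: tccatGACGTTcctGACGTT

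The arrays differed in ways that touch these results. Mean probe intensity was 587 to 788 per array, and 13303 to 13835 of 48801 probes per array had a detection p-value under 0.01. CpG ascites replicate 1 stood apart. Across probes it correlated with the rest at a Pearson r of 0.948 to 0.958, against 0.978 to 0.992 among the other 5, and where a log2 change or list median printed below moved by over 1.5 times without it, both values are given. Of 10 markers of epithelium and ovarian carcinoma, 4 (EPCAM, KRT19, MUC1 and PAX8) were above background on all 6 arrays, and KRT8, MUC16 and WT1 on none. The leukocyte list had 11 markers on the array, among them HBB, which is a gene of red cells. Of the 11, 9 were above background on no array, PTPRC, CD14 and HBB among them. CD68 was above background on all 6 arrays and LYZ on some. The summed intensity of the 11 was 4047 to 4728 in saline and 3731 to 5478 in CpG ascites. All 6 markers of plasmacytoid dendritic cells were at background on every array, and so were 7 of 8 markers of fibroblasts and mesothelium.

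The first question was which of these genes the line expressed at all. Above background on all 6 arrays, at 1 probe or more, were 5 of the 10 genes: STING1, TLR3, UNC93B1, TBK1 and IRF3. CGAS was above background on the 3 saline arrays and on 2 of the 3 CpG arrays. The other 4, TLR9, AIM2, TREX1 and MYD88, were above background on no array at any probe. A probe at background does not show that the transcript is absent, and 3 of these 4 genes have a single probe here.

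**Figure D1:**
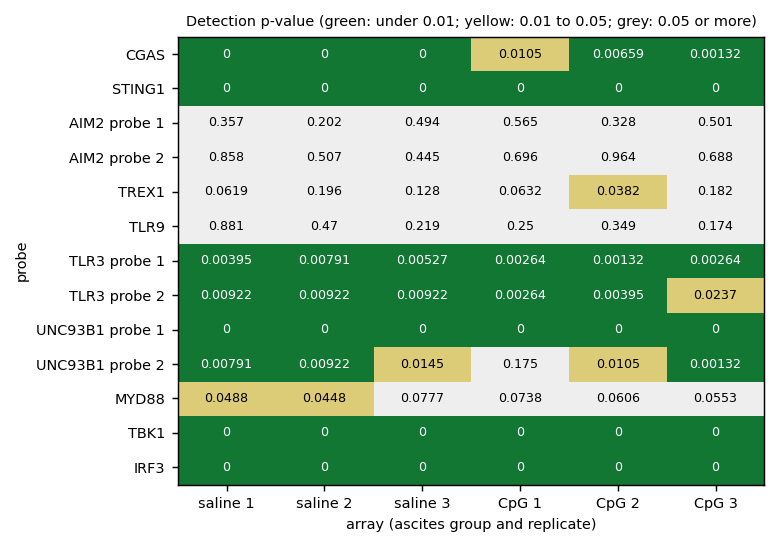
Detection p-value of each of the 13 probes (rows) on each of the 6 arrays (columns), coloured by range. Every TLR9 and AIM2 probe has a p-value of 0.174 or more on every array, while STING1, TBK1, IRF3 and the first UNC93B1 probe have 0 on all 6.

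TLR9, the receptor for CpG DNA, had an intensity before background correction of 96.2, 106 and 120 on the saline arrays and of 106, 112 and 114 on the CpG arrays. Its detection p-values were 0.881, 0.470 and 0.219 in saline and 0.250, 0.349 and 0.174 in CpG ascites. The groups overlapped, and no array of either kind gave a signal that stood out from the negative controls. The B cell marker MS4A1 and the plasmacytoid markers were likewise at background on all 6 arrays.

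MYD88, the adaptor of TLR9 and of most other Toll-like receptors, was also not above background. Its detection p-values ran from 0.0448 to 0.0777 over the 6 arrays, close to the limit and below 0.05 on 2 saline arrays. At the looser limit of 0.05 on all 6 arrays 6 of the 10 genes were detected, MYD88 still not among them. Its log2 intensities were 5.63, 5.65 and 5.40 in saline ascites and 5.45, 5.46 and 5.51 in CpG ascites, which overlap.

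AIM2 was dim at both of its probes, with detection p-values from 0.202 to 0.964. TREX1 had detection p-values from 0.0382 to 0.196, and its log2 intensity was 5.53, 5.15 and 5.24 in saline and 5.47, 5.70 and 5.15 in CpG ascites. Both groups overlapped at all 3 probes, and with both groups below background no fold is given for AIM2, TREX1, TLR9 or MYD88.

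**Figure D2:**
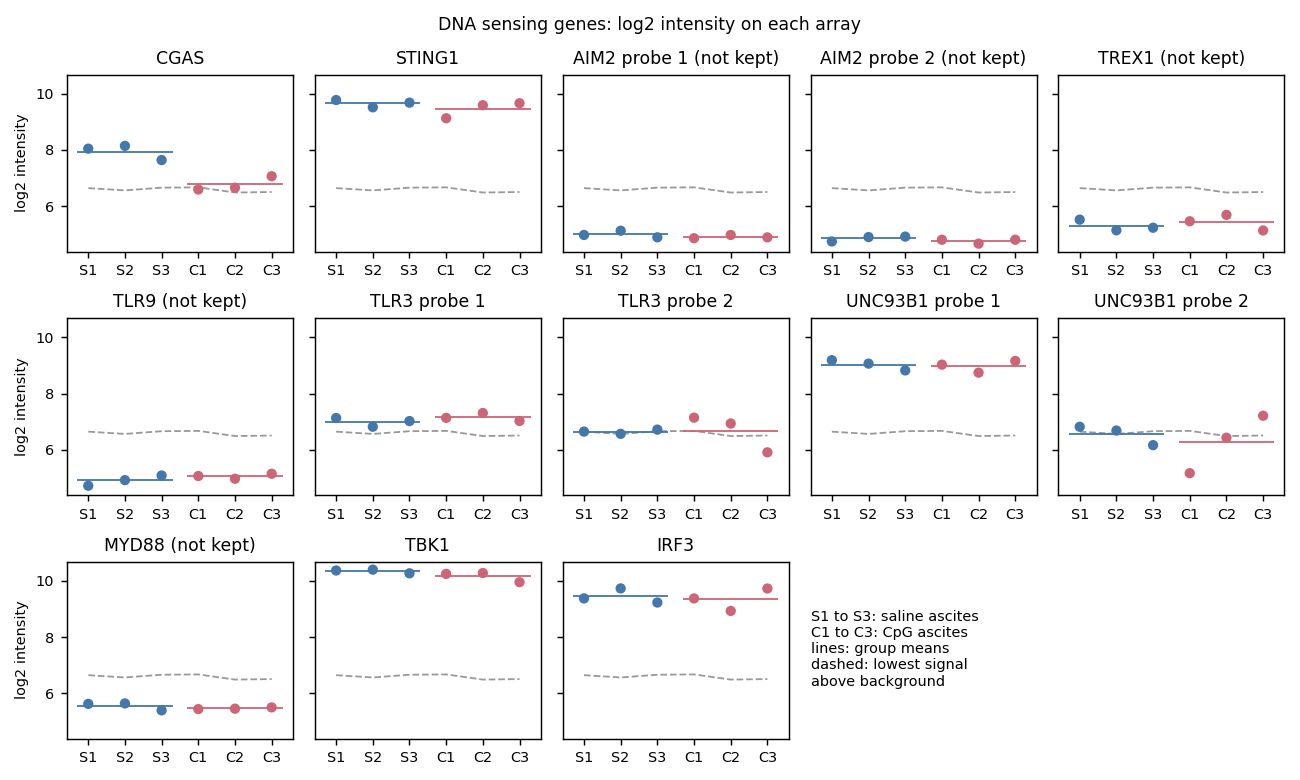
Log2 intensity (vertical axis) of each probe on each array (S1 to S3 saline ascites, C1 to C3 CpG ascites), with group means as lines and the lowest signal above background as a dashed line. At CGAS the 3 CpG arrays lie at 6.60 to 7.07 and the 3 saline arrays at 7.64 to 8.15, and at every other probe the groups overlap.

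The second question was whether these genes differed between CpG and saline ascites. CGAS had the widest gap of the 8 probes kept, with a level 2.25-fold lower in CpG ascites, and the other members lay close to their saline level or varied more within a group than between groups. The values follow in the order of the cytosolic route, the endosomal route, and the kinase and transcription factor that the cytosolic and TLR3 routes share.

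CGAS, the cytosolic DNA sensor, had a log2 intensity of 8.05, 8.15 and 7.64 on the saline arrays and of 6.60, 6.66 and 7.07 on the CpG arrays. The groups did not overlap, and the highest CpG array lay 0.57 below the lowest saline array. The log2 change was -1.17 ± 0.19 (SE), from 7.95 ± 0.27 (SD, n = 3) to 6.78 ± 0.26 (SD, n = 3). Against the saline mean, the log2 differences were -1.35 for CpG ascites replicate 1, -1.28 for replicate 2 and -0.88 for replicate 3. Without CpG ascites replicate 1 the change was -1.08 ± 0.19. In bulk RNA, fewer cells with the transcript and less of it in each cell cannot be told apart.

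The CpG level of CGAS was near the lower end of what the array can measure. Its intensity before correction was 333, 392 and 310 in saline and 169, 216 and 205 in CpG ascites, with a detection p-value of 0.0105 on CpG ascites replicate 1. The size of its change therefore moved with the background correction, from -1.17 to -0.96 with a larger offset and to -0.74 with none. With 1 array left out it ran from -1.32 to -1.07. The annotation names 1 probe for CGAS, and no second probe could be set beside it.

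STING1, the receptor of cGAMP, had a log2 intensity of 9.77, 9.51 and 9.68 in saline and of 9.13, 9.59 and 9.66 in CpG ascites. Only CpG ascites replicate 1 lay below the range of the saline arrays. The log2 change was -0.20 ± 0.17 (SE) over all arrays and -0.03 ± 0.13 without that array, so most of it came from 1 array.

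TLR3, the endosomal receptor for double-stranded RNA, was near the detection limit. At its brighter probe it had 7.13, 6.82 and 7.02 in saline and 7.14, 7.31 and 7.03 in CpG ascites, a log2 change of 0.17 ± 0.14 (SE). Its second probe had 6.65, 6.57 and 6.72 in saline but 7.14, 6.94 and 5.92 in CpG ascites, with a change of 0.02 ± 0.30. At that probe CpG ascites replicates 1 and 2 lay above all saline arrays and replicate 3 below them, so the change there was 0.39 without replicate 3 and -0.22 without replicate 1.

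UNC93B1, the chaperone that carries the nucleic acid receptors to endosomes, also has a pair of probes. The brighter one had 9.18, 9.06 and 8.82 in saline and 9.02, 8.74 and 9.16 in CpG ascites, with overlapping groups and a log2 change of -0.05 ± 0.16 (SE), or -0.07 ± 0.17 without CpG ascites replicate 1. The dimmer one had 6.82, 6.69 and 6.17 in saline and spread from 5.18 on CpG ascites replicate 1 through 6.43 to 7.21 on replicate 3. Its change of -0.29 ± 0.47 became 0.26 ± 0.27 without replicate 1 and has no settled sign.

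TBK1, the kinase that STING and TRIF both use, had a log2 intensity of 10.36, 10.39 and 10.26 in saline and of 10.24, 10.27 and 9.95 in CpG ascites. Replicate 3 lay well below the saline range and replicate 1 just below it, with a log2 change of -0.19 ± 0.14 (SE). IRF3, its substrate, had 9.37, 9.73 and 9.22 in saline and 9.37, 8.93 and 9.72 in CpG ascites. Its change was -0.10 ± 0.23, with CpG ascites replicate 2 below the saline range and the other 2 CpG arrays within it.

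**Figure D3:**
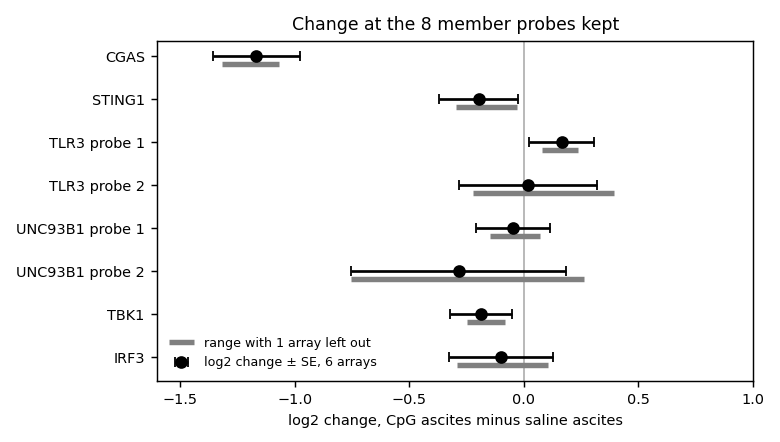
Log2 change, CpG ascites minus saline ascites (horizontal axis), of the 8 member probes kept, as the fitted change ± SE over 6 arrays (points and bars) and the range with 1 array left out (grey). CGAS lies at -1.17, and the other 7 probes lie between -0.29 and 0.17.

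The groups were apart at 1 of the 8 probes, that of CGAS with lower CpG values, where 9.82% of the 13713 probes kept were apart in that direction and 10.9% in the other. These shares are printed for reference, since CGAS was known to differ when the genes were chosen. With the brightest probe of each of the 6 genes, 5 had a lower and 1 a higher mean in CpG ascites, and the median log2 change was -0.14, against -0.000373 over all probes kept, of which 49.9% had a higher mean. Without CpG ascites replicate 1 the median was -0.09, again with 5 lower and 1 higher.

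No shared pattern of the members was seen across the 6 arrays. Probes of the same gene also correlated weakly, so r cannot show here whether the members vary together. Pearson's r of CGAS with the other kept probes, over 6 arrays that share the group difference, ran from -0.67 with the brighter TLR3 probe to 0.55 with STING1. The pair of TLR3 probes had r = 0.44 and the pair of UNC93B1 probes 0.35, while the brighter UNC93B1 probe and IRF3, which are different genes, had 0.80. The genes whose pattern was most like that of CGAS, among 9210 others, were SLC41A3 (r = 0.988), RBM22 (0.986), TUBA4A (0.983), CASTOR1 (0.980) and PEA15 (0.979). Most opposite were CEBPA (-0.993), DYNC2LI1 (-0.992), LEMD1 (-0.991), LONP2 (-0.987) and XPC (-0.986). In all 10 the groups were apart, as at CGAS, and over 6 arrays 112 genes had r above 0.9 with CGAS and 154 had r below -0.9, so single names carry little weight. A second SLC41A3 probe had groups that overlapped, with a change of -0.16 ± 0.15 (SE), or -0.05 ± 0.13 without CpG ascites replicate 1.

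The rest of the machinery was taken from 9 lists of genes around the members. Of the 113 genes kept that are no members, 0 had an adjusted p under 0.05 in limma with Benjamini-Hochberg adjustment, where 0% of all probes kept did. At an unadjusted p under 0.05, 6 genes (5.31%) were higher and 11 (9.73%) lower, beside 6.86% and 5.97% of all probes kept. Groups were apart with higher values at 9 genes (7.96%) and with lower values at 14 (12.4%), beside 10.9% and 9.82% of all probes. The share of higher genes was below that over all probes, and the share of lower genes above it. The unadjusted counts without CpG ascites replicate 1 were 5 higher (4.42%) and 11 lower (9.73%), beside 6.82% and 8.06% of all probes. Groups were then apart with higher values at 14 genes (12.4%) and with lower values at 20 (17.7%), beside 16.4% and 15.6% of all probes. The adjusted p of the 27 genes with the smallest p of their lists ran from 0.193 to 0.90 in limma, and each value is given without a call.

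Other DNA sensors and their helpers numbered 23 with CGAS, of which 4 had higher and 19 lower means, with a median log2 change of -0.11. Without CpG ascites replicate 1 there were 8 higher and 15 lower, at a median of -0.12. The smallest p values belonged to G3BP1, a helper of cGAS (-0.31 ± 0.14, SE), and to subunits of RNA polymerase III, which copies cytosolic DNA into RNA, POLR3F (-0.32 ± 0.16) and POLR3C (-0.22 ± 0.12). A second G3BP1 probe had 0.11 ± 0.19, or 0.00236 ± 0.18 without CpG ascites replicate 1. PYHIN1 and MNDA, of the AIM2 family, were not kept by the filter. IFI16, a nuclear and cytosolic DNA sensor of that family, was above background on all arrays. It stood at 7.63 ± 0.34 (SD, n = 3) in saline and 7.52 ± 0.45 (SD, n = 3) in CpG ascites. Its log2 change was -0.11 ± 0.26 (SE), with groups that overlapped, and -0.27 ± 0.25 without CpG ascites replicate 1.

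Regulators of STING split evenly, with 10 higher and 9 lower means among 19 genes kept and a median of 0.02, or 0.0026 without CpG ascites replicate 1. RNF26, a ubiquitin ligase that acts on STING, had 8.04, 8.39 and 8.26 in saline and 8.68, 8.63 and 8.64 in CpG ascites, a log2 change of 0.42 ± 0.13 (SE). STIM1, a calcium sensor of the endoplasmic reticulum that binds STING, had 0.51 ± 0.16. SSR2, a translocon protein, had -0.31 ± 0.17, with -0.15 ± 0.13 without CpG ascites replicate 1. Its second probe had -0.14 ± 0.23, and 0.10 ± 0.16 without that array. At RNF26 and STIM1 the 3 CpG arrays lay above the 3 saline arrays.

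Among the kinases and transcription factors, 5 of 15 had higher and 10 lower means, with a median of -0.11. IKBKE, the relative of TBK1, had 0.46 ± 0.20 (SE) and IRF7, the relative of IRF3, -0.51 ± 0.25. IRF7 stood at 7.82 on CpG ascites replicate 1 and at 8.68 and 8.72 on replicates 2 and 3, and without the first its change was -0.22 ± 0.15. That array also moved IKBKG, the regulatory subunit of the IKK complex, from -0.02 ± 0.12 without it to -0.32 ± 0.25 with it.

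On the endosomal side, TLR7 and TLR8, the receptors for single-stranded RNA, were not kept by the filter, like TLR9. Of the 16 genes kept, 9 had higher and 7 lower means, with a median of 0.02. Leaving out CpG ascites replicate 1 gave 10 higher and 6 lower, at a median of 0.10. LGMN, the asparagine endopeptidase that takes part in cutting TLR9 into its active form, had 10.14, 10.45 and 10.64 in saline and 11.24, 10.79 and 10.91 in CpG ascites. Its log2 change was 0.57 ± 0.18 (SE), and a second probe had 0.60 ± 0.24, with the groups apart at both. The second probe had 0.32 ± 0.13 without CpG ascites replicate 1. The lysosomal protease CTSL had 0.23 ± 0.11 at its brightest probe and 0.16 ± 0.29 and 0.04 ± 0.13 at others, where leaving out that array gave 0.52 ± 0.13 and 0.09 ± 0.13. CTSH, another lysosomal protease, had 0.28 ± 0.14 and 0.19 ± 0.22 at its probes, or 0.17 ± 0.12 and 0.12 ± 0.23 without that array.

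In MyD88 and TRIF signalling, 8 of 13 genes kept had higher and 5 lower means, but 4 and 9 without CpG ascites replicate 1, where the median went from 0.03 to -0.03, so the list has no settled direction. TICAM2, the adaptor TRAM that links TLR4 to TRIF, had 10.03, 10.12 and 10.08 in saline and 9.46, 9.77 and 9.50 in CpG ascites. Its log2 change was -0.50 ± 0.13 (SE), with the groups apart. UBE2V1, part of a ubiquitin-conjugating complex downstream of TRAF6, had -0.47 ± 0.20, or -0.30 ± 0.17 without CpG ascites replicate 1, and was above background on 2 of the 3 CpG arrays. TRAF3 had 0.40 ± 0.19, and 0.24 ± 0.16 without CpG ascites replicate 1.

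Only 8 of the 18 genes of DNA and RNA breakdown were kept, 4 with higher and 4 with lower means. Without CpG ascites replicate 1, 6 were higher and 2 lower. RNASEH2B, a subunit of the nuclease that removes ribonucleotides from DNA, had 10.71, 10.36 and 10.37 in saline and 9.80, 10.22 and 9.68 in CpG ascites. Its log2 change was -0.58 ± 0.18 (SE), with the groups apart. DNASE1L1, a relative of DNase I, had 0.40 ± 0.15 at its brightest probe and -0.42 ± 0.71 at another, where CpG ascites replicate 1 stood at 5.19 against 7.87 and 8.01 and the change was 0.50 ± 0.25 without it. RNASET2, a lysosomal ribonuclease, had 0.28 ± 0.14.

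The list named for the AIM2 inflammasome also holds genes of other inflammasomes, such as NLRP1, NLRP3, NLRC4 and CASP4. It was largely below the filter in this line. Of its 15 genes 5 were kept, and the adaptor PYCARD, CASP1, IL1B and NLRP3 were not. Among those kept, IL18 had a mean log2 intensity of 13.98 in saline and 13.99 in CpG ascites. CASP4 had 9.64 and 9.66, and both genes were above background on all arrays. The pore-forming GSDMD had -0.11 ± 0.29 (SE) with CpG ascites replicate 1 and 0.26 ± 0.12 without it, and NLRP1 had 0.08 ± 0.24 and 0.33 ± 0.16. Both have groups that overlap over 6 arrays.

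The list of interferon outputs, which also holds the receptor genes IFNAR1 and IFNAR2, had 2 higher and 10 lower means among 12 genes kept. Its median was -0.27. Some of the lower genes lay near 0, with ISG20 at -0.04 ± 0.14 (SE), IFNAR1 at -0.03 ± 0.16 and IFNAR2 at -0.0018 ± 0.13. Without CpG ascites replicate 1 they had -0.13 ± 0.13, -0.06 ± 0.17 and -0.03 ± 0.13. Counts without that array were again 2 and 10, at a median of -0.32. The size of the median depended on the filter. With only probes above background on all 6 arrays, 2 of 11 genes were higher and 9 lower and the median was -0.09, beside -0.11 for DNA sensors and -0.10 for kinases and transcription factors. The interferon genes themselves, IFNB1, IFNA1, IFNA2, IFNK, IFNL1, IFNL2 and IFNL3, and the chemokine gene CXCL10 were not kept by the filter. The epithelial interferon gene IFNE, singled out after its values were seen, was above background on all 6 arrays, at a mean of 7.86 in saline and 8.41 in CpG ascites, with groups that overlapped and a change of 0.56 ± 0.35 (SE), or 0.14 ± 0.19 without CpG ascites replicate 1. IFIT1 had 9.51, 9.37 and 9.20 in saline and 8.47, 8.99 and 8.84 in CpG ascites, a log2 change of -0.60 ± 0.17 (SE). A second IFIT1 probe, at background on all 6 arrays, had overlapping groups with means of 5.97 in saline and 6.16 in CpG ascites. IFIT2 had a change of -0.52 ± 0.15. RSAD2, the viperin gene, was above background on all 3 saline arrays but at background on all 3 CpG arrays, which makes it at least 1.41-fold lower. It passed the filter through the saline arrays alone.

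The sensors of cytosolic RNA went both ways, with 5 higher and 4 lower means among 9 genes kept, or 4 and 5 without CpG ascites replicate 1. IFIH1, the sensor MDA5 of long double-stranded RNA, had 8.83, 8.63 and 8.30 in saline and 7.91, 8.10 and 7.22 in CpG ascites, a log2 change of -0.84 ± 0.25 (SE). OAS2, which makes a messenger that activates RNase L, was likewise at background on the CpG arrays alone and at least 1.38-fold lower, with its 3 other probes at background throughout, and it too passed the filter through the saline arrays alone. RNF135, a ubiquitin ligase of the RIG-I route, had 0.67 ± 0.20 at its brightest probe. A dimmer probe that the filter removed went the other way, with a CpG mean of 6.26 against 6.61 in saline. There the CpG arrays all lay below the saline arrays, and 2 saline but 0 CpG arrays were above background. A further RNF135 probe, at background throughout, had groups that overlapped. Genes of these lists that interferon is known to induce had values in both directions. More of those named here were lower than higher in CpG ascites, but many were named after their values were seen. RSAD2 and OAS2 count among the lower ones. RIGI had 0.12 ± 0.18 (SE), or -0.04 ± 0.15 without CpG ascites replicate 1, with groups that overlapped. ADAR, of the nuclease list, had 0.25 ± 0.17, or 0.07 ± 0.12, also with overlap. Of all probes kept, 9.82% had groups apart with lower and 10.9% with higher values. At IFIT1, IFIT2 and IFIH1 the CpG arrays lay below the saline arrays. So they did at CCL5 (-0.51 ± 0.18, SE), IRF9 (-0.34 ± 0.14) and EIF2AK2 (-0.40 ± 0.15). At TRIM25, with 0.43 ± 0.15, they lay above them. Groups overlapped at OAS1 (-0.60 ± 0.29), OASL (-0.20 ± 0.16) and IFIT3 (-1.28 ± 0.71, or -0.36 ± 0.22 without CpG ascites replicate 1). ISG15 had 0.13 ± 0.19 (SE), or 0.20 ± 0.20 without CpG ascites replicate 1, OAS3 had 0.20 ± 0.17 and DHX58 had 0.00747 ± 0.14, all with groups that overlapped.

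**Figure D4:**
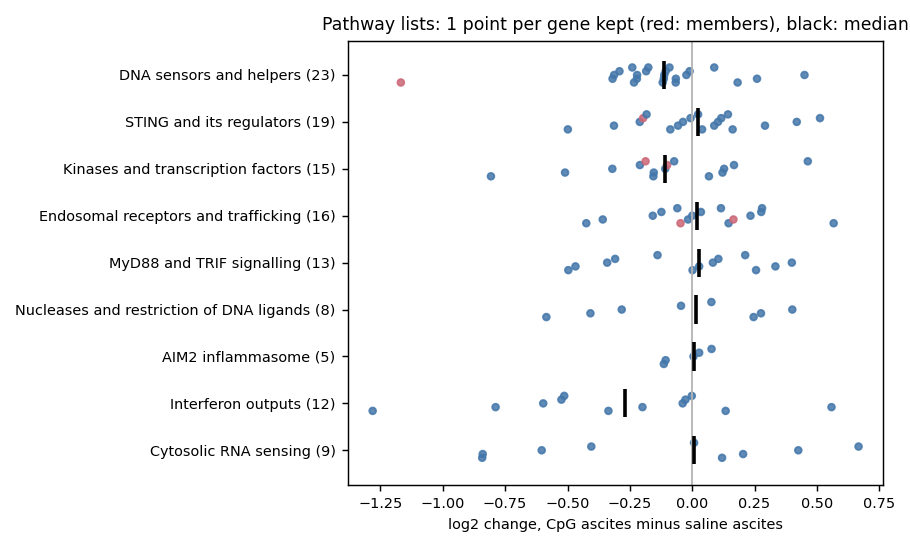
Log2 change, CpG ascites minus saline ascites (horizontal axis), of each gene kept in the 9 lists (rows, with the number of genes), members in red and list medians as black bars. Medians under the filter of 3 arrays or more run from -0.27 for interferon outputs to 0.03 for MyD88 and TRIF signalling, and CGAS at -1.17 lies apart from the rest of its list.

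CGAS and TLR3 are known as interferon-induced genes, so the member promoters at hand were searched for the core of the interferon response element, GAAANNGAA, on both strands. RefSeq promoter windows of GRCh38.p14, from 250 bases before to 50 bases after the start, were matched for 6 of the 10 members. No window was at hand for CGAS, STING1, UNC93B1 and IRF3, so the promoter of CGAS was not searched. The motif was in the windows of AIM2, TLR3 and MYD88 and in 8.11% of the 35116 windows of all genes. An NF-kB site core, GGGNNTTCC, was in none of the 6 members and in 6.58% of all windows. A match is only a match of letters. The windows below are those of TLR3, which holds the interferon motif and whose level overlapped between the groups, of IFIT1, which holds it and had groups apart, and of TBK1, which lacks it. They are given 5′ to 3′ on the strand of the gene, with the interferon motif on either strand in capitals.
TLR3 promoter, chr4:186068906-186069205, plus strand: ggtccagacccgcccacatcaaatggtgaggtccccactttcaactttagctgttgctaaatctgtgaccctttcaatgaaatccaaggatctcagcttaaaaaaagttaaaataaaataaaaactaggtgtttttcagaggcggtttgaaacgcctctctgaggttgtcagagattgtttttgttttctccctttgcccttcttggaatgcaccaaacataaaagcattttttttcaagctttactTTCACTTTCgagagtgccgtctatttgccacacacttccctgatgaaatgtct
IFIT1 promoter, chr10:89392373-89392672, plus strand: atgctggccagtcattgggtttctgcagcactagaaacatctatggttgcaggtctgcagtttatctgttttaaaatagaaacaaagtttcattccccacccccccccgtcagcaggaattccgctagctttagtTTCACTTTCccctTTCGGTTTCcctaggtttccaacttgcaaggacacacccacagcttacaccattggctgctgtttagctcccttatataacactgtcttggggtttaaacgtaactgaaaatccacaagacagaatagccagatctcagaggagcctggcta
TBK1 promoter, chr12:64451870-64452169, plus strand: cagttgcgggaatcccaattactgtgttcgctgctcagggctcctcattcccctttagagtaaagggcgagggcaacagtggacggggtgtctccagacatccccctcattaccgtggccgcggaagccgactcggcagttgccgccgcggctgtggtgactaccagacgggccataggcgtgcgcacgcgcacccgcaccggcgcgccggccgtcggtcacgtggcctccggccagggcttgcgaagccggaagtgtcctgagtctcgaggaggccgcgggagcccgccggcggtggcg

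**Figure D5:**
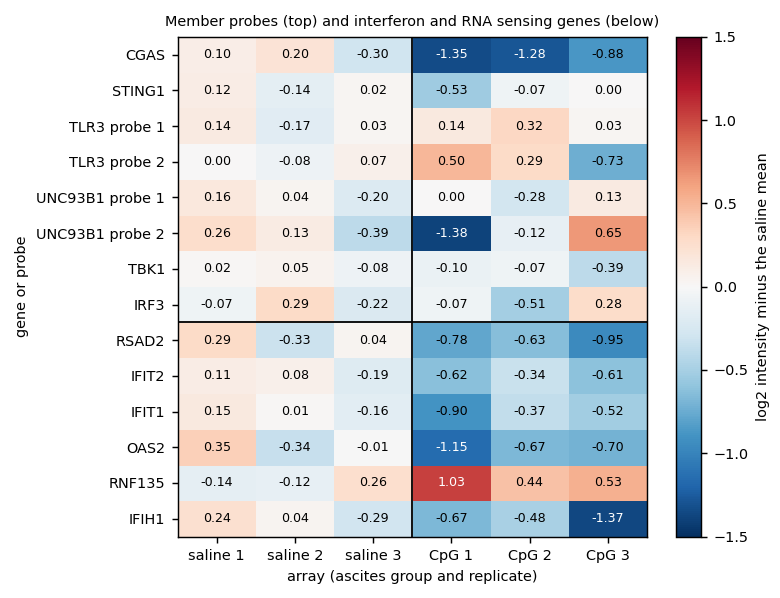
Log2 intensity minus the saline mean (colour and number) of the 8 member probes kept (above the line) and of the genes named from the interferon and RNA sensing lists (below it), on each array. CGAS is at -1.35, -1.28 and -0.88 on the CpG arrays, TLR3 at its brighter probe at 0.14, 0.32 and 0.04, and IFIT1 at -0.90, -0.37 and -0.52.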

How the data were processed

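The members, gene lists and tests were chosen with earlier results of these data known. Of 6 arrays, 3 had saline and 3 CpG ascites. Per the submitters' processing notes BeadStudio was used, with no version named. The deposited table holds a probe intensity that is not normalized and a detection p-value for each probe, per the file headers. A second deposited table of processed intensity, by the authors, keeps the ranks of the first, has a median of 121 on every array and served as an alternative.

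Intensities were corrected with the normexp model of limma 3.58.1 (R 4.3.3), with negative controls inferred from the detection p-values and an offset of 16, quantile normalized and taken to log2. Kept were probes whose detection p-value was below 0.01 on 3 or more arrays. Symbols came from the platform annotation (28097 probes with 1 symbol, 13 with several, 20691 with none), updated by gene number for 28058. The comparison used limma's lmFit and eBayes across all 13713 probes kept, with Benjamini-Hochberg adjustment and a threshold of 0.05. The fit was tested on simulated data. The brightest probe stood for a gene in the lists.

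Named were all member probes, the 3 genes of each list with the smallest p, since none passed, and the 5 genes most and least like CGAS. Other members of a list, and genes whose absence after the filter is given, were named after their values were seen. A bound ("at least") sets the bright group's mean against a floor for the dim group: on each array the lowest signal above background, or the probe's own if that is higher, averaged over arrays. Replicate numbers were not used to pair the samples in the main fit. A further planned motif search is not reported here. The number of arrays limits the precision.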

Additional observations from a re-analysis of the deposited data

How the results depend on the processing

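Of the values for single probes and lists, 225 moved by less than the spread between replicates under an alternative and 29 by more, or for counts by over 1.5 times. Some of the 225 could not move. A replicate block leaves every log2 change as it was, and another filter leaves that of a single probe. The settings with no background correction and with the authors' values were nearly the same, so the tally is no measure of stability. The number of probes past the test was 0 in the main setting. It was 1 with no background correction and 1 with the authors' values, 19 with a mean-variance trend and robust estimation, and 0 to 21 with 1 array left out, the 21 without CpG ascites replicate 1. Median scaling moved the median of all probes to 0.17 and with it the members' median to 0.040, so relative to all probes the members stayed lower. The change of CGAS ran from -1.32 to -0.74. The signs of UNC93B1, IRF3, TBK1 and the second TLR3 probe turned in at least 1 alternative, while STING1 and the brighter TLR3 probe kept theirs in all 14. Among the 14 are the block and the filters, which could not turn a sign. The list of DNA sensors ran from -0.16 to 0.03, the latter with median scaling, and that of interferon outputs from -0.34 to -0.09. The replicate number as a replicate block gave 0 probes. Each number stands once in each group, so such a block cannot alter a log2 change. The members' median of -0.14 was therefore fixed under it. Deviations of arrays with the same number correlated at -0.10, 0.01 and -0.02, and none correlated best with its own number. With so few arrays in a group, this cannot tell whether the samples were paired. The cause of these shifts was not tested. Signal over background limits CGAS in CpG ascites, TLR3, and the 4 genes at background.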
